A study of Mus musculus with 12 samples.

Results

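Small nucleolar RNA genes are described here from a table of read counts of the mouse embryonic heart field. Rows were taken by name, Snord with a number for C/D box genes and Snora with a number for H/ACA box genes, and kept where the summed count over the 12 libraries reached 1000. Of 48709 rows in the table, 123 had such a name and 107 met the minimum, 71 C/D and 36 H/ACA. The minimum fell between Snord71 with 1014 and Snord107 with 1036 counts inside it, and Snora30 with 903 and Snora47 with 841 counts outside it. The annotation gave 106 of the 107 rows the small nucleolar RNA type, and Snord43 the microRNA type. Snord80 and Snora16a each had a pair of nested rows, so the 107 rows stand for 105 loci.

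Small nucleolar RNAs are stable non-coding RNAs that guide chemical changes of other RNAs in the nucleolus, where ribosomes are built. C/D RNAs bind fibrillarin and place ribose methyl groups, and H/ACA RNAs bind dyskerin and place pseudouridines, mostly on ribosomal RNA. A few members, among them Snord118 (U8), Snord14 (U14), Snord22 (U22) and Snora73 (U17), are instead needed to cut the ribosomal RNA precursor. In mammals most of them lie in introns of other genes, the host genes, many of which encode ribosomal proteins. They are released by trimming of the excised intron, so that 1 primary transcript yields both the spliced host RNA and the small RNA. Snord118 and Snord13 (U13) are known as exceptions with promoters of their own.

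The study dissected cardiogenic regions, the part of the embryo that forms the heart, from mouse embryos and sequenced total RNA at 4 stages: E8, E8.5, E9.5 and E14, where E counts days after conception. Each stage had 3 libraries. No genotype, strain or treatment is named in the labels, and no label says whether libraries came from separate embryos or litters, so a p-value here speaks of the spread among the libraries alone, and that spread may be technical. In bulk tissue, fewer cells of a type and less RNA per cell cannot be told apart. Libraries held 56574386 to 122785175 counts, and the 107 rows took 0.162% to 0.303% of them. All 8 cardiomyocyte markers were detected, with a summed level of 16412 to 25329 CPM (counts scaled to a library of 1000000) over all libraries. Markers of other cell types were detected as well, with 282 to 501 CPM over 4 endothelial, 0.57 to 4.09 CPM over 4 neural tube, 510 to 26151 CPM over 6 erythroid and 9.88 to 1642 CPM over 7 visceral endoderm and liver genes. E8.5 replicate 3 stood apart within its stage, with 1642 CPM of the visceral endoderm and liver markers against 149 and 54.7 CPM in the other E8.5 libraries. Class calls between E8.5 and E8 are given with and without it. The other class and ratio counts are also given as ranges over single left-out libraries, and the remaining results only with it.

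The sequences of the members on which the results turn are shown first, from the GENCODE release M21 transcripts of build GRCm38, written as DNA from 5′ to 3′. Capitals mark TGATGA, the core of the C box, within the first 20 bases and CTGA, the D box, within the last 12 bases of C/D members, and ACA within the last 8 bases of H/ACA members, all searched on the RNA strand. TGATGA was found in 47 of 71 C/D rows (66.2%) and CTGA in 60 (84.5%), against 0.365% and 4.78% of the first 78 bases of 32851 annotated promoter windows searched the same way. ACA was found in 34 of 36 H/ACA rows (94.4%) and in 8.92% of 133-base promoter windows. The first set shows the 3 forms of U14 in Hspa8, of which Snord14c and Snord14d matched at 84 of 86 aligned positions and Snord14e matched either at 74 of 93.
Snord14c: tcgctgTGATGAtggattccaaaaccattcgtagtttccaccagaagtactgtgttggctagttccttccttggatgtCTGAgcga
Snord14d: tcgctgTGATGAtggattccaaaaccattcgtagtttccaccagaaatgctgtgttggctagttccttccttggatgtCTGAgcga
Snord14e: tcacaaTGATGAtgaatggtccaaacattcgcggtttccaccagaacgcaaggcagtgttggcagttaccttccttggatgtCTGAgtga

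The next set shows pairs that share a host gene and whose counts moved apart, Snord42a and Snord42b in Rpl23a and Snord43 and Snord83b in Rpl3, and Snord32a of Rpl13a. TGATGA was absent in the searched window of Snord42a, Snord42b and Snord43.
Snord42a: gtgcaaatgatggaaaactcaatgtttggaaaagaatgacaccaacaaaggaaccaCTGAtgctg
Snord42b: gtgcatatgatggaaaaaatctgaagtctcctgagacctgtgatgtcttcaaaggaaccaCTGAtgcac
Snord43: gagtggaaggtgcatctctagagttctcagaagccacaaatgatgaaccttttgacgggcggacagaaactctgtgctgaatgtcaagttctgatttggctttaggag
Snord83b: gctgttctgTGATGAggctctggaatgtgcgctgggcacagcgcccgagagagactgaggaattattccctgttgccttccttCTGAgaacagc
Snord32a: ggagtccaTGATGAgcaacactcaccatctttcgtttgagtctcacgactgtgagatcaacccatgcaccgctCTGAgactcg

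The last set shows the members with no enclosing host row or with the largest decreases, Snord118 and Snord107, the longest C/D member Snord17, and the pair Snora73a and Snora73b, which matched at 198 of 205 positions.
Snord118: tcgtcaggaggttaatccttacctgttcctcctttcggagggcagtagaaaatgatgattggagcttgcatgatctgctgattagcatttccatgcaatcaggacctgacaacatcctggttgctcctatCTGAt
Snord107: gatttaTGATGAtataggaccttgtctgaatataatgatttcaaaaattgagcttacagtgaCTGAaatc
Snord17: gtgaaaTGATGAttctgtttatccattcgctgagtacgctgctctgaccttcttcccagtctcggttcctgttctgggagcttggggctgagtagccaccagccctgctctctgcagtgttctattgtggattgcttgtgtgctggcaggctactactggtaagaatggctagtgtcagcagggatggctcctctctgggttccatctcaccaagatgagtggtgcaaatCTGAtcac
Snora73a: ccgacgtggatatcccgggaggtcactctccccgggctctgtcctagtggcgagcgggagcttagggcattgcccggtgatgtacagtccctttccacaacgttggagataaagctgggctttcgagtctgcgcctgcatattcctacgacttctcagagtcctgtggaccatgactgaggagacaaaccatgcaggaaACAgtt
Snora73b: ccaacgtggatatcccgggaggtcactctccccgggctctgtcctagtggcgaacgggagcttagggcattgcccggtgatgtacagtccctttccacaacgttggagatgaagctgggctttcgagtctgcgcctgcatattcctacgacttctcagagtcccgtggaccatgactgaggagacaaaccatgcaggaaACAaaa

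A host row was assigned as the shortest row of at least 500 bases on the same strand that enclosed the whole member. This gave a host to 100 of the 107 members, in 68 host rows, 46 with 1 member and 22 with several. Exons were taken from 1 principal transcript per host, the longest tagged as principal, or the longest where none was tagged. Of the 100, 89 lay outside the exons of that transcript and 11 overlapped at least 1 of them. Exons of other host transcripts were not checked. Ribosomal protein genes and Rack1, a ribosomal scaffold protein, hosted 35 members, other coding genes 40 and long non-coding RNAs 25. The 7 members without a host row were Snord118, Snord13, Snord104, Snora17, Snora43, Snora57 and Snora78. Rows on the opposite strand were not taken as hosts, and Snora78 lies inside such a row, that of Rps2. Since the strand setting of the counting is not known, the Snora78 row may hold Rps2 reads. Another 6 members, all with a host, also lie inside a longer row on the opposite strand. They are Snord35b, Snord42a, Snord4a, Snora23, Snora73a and Snora73b, and they may likewise hold reads of that strand.

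Short intronic rows of other kinds also held many counts. The microRNA gene Mir208b, 1 of 24 intronic microRNA rows in strongly expressed coding hosts, lies in the cardiac myosin gene Myh7 and had 65768 counts, although the row is only 77 bases long. Its counts were 1.25, 1.23 and 1.18% (E8), 1.21, 1.196 and 1.196% (E8.5), 1.79, 1.75 and 1.67% (E9.5) and 1.43, 1.52 and 1.51% (E14) of the Myh7 count. Expressed as the number of bases of mature host RNA that would carry the same count, intronic microRNA rows had a median of 57.5 bases (2.1 to 229), and the 75 members in coding hosts had a median of 92.0 bases (14.6 to 585). Only Snord17 (585 bases), Snora23 (241) and Snora41 (236) lay above the highest microRNA row, Mir7067. The measure is not divided by the length of the row, and longer rows can hold more reads. Those members are 238, 184 and 132 bases long, and Mir7067 is 63 bases long, so the measure does not set them apart. For the 75 members in coding hosts, reads of the small RNA and reads of the spliced or unspliced host over the same interval cannot be told apart by size of the count.

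Levels per length spanned a wide range. The median member had a mean of 9.30 CPM (0.81 to 176), and per kilobase of its length the median was 85.02 CPM for C/D and 72.7 CPM for H/ACA loci. The highest C/D members per kilobase were Snord100 (859.7 CPM per kilobase), Snord42b (814 CPM per kilobase), Snord59a (795 CPM per kilobase), Snord14d (779 CPM per kilobase) and Snord14c (740.3 CPM per kilobase). The highest H/ACA members were Snora73a (859 CPM per kilobase), Snora73b (483 CPM per kilobase), Snora7a (424 CPM per kilobase), Snora31 (396 CPM per kilobase) and Snora33 (354 CPM per kilobase). These leading members lie in ribosomal protein, Hspa8, Atp5b, Tpt1 and Snhg3 hosts.

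By stage mean, the members together were lowest at E8.5 and highest at E9.5, but the libraries overlapped in part. All loci summed to 2173 CPM in E8.5 replicate 3, within the E8 range of 2161 to 2223 CPM, and to 1790 and 1505 CPM in the other E8.5 libraries. For H/ACA loci, E9.5 replicate 1 (938 CPM) lay below E8 replicates 1 and 3 (943 and 979 CPM). C/D loci summed to 1246 ± 38.1 CPM at E8, 1046 ± 177 CPM at E8.5, 1795 ± 157 CPM at E9.5, and 1380.5 ± 51.1 CPM at E14, and H/ACA loci to 952 ± 23.9 CPM at E8, 777 ± 159 CPM at E8.5, 1069 ± 114 CPM at E9.5, and 855 ± 40.4 CPM at E14 (SD, n = 3 libraries each). The mean was highest at E9.5 in 59 of 71 C/D and 26 of 36 H/ACA rows, whereas 18.9% of the 28846 rows tested had their highest mean at that stage. In all, 50 of the 107 members passed the test as higher at E9.5 than at E8.5 and again as lower at E14 than at E9.5, 36 C/D and 14 H/ACA. A further 15 passed the test in neither comparison. The share of all rows with either joint pattern is not given here. Taken singly, 18.4% of all rows tested were higher at E9.5 than at E8.5, and 24.6% were lower at E14 than at E9.5.

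**Figure D1:**
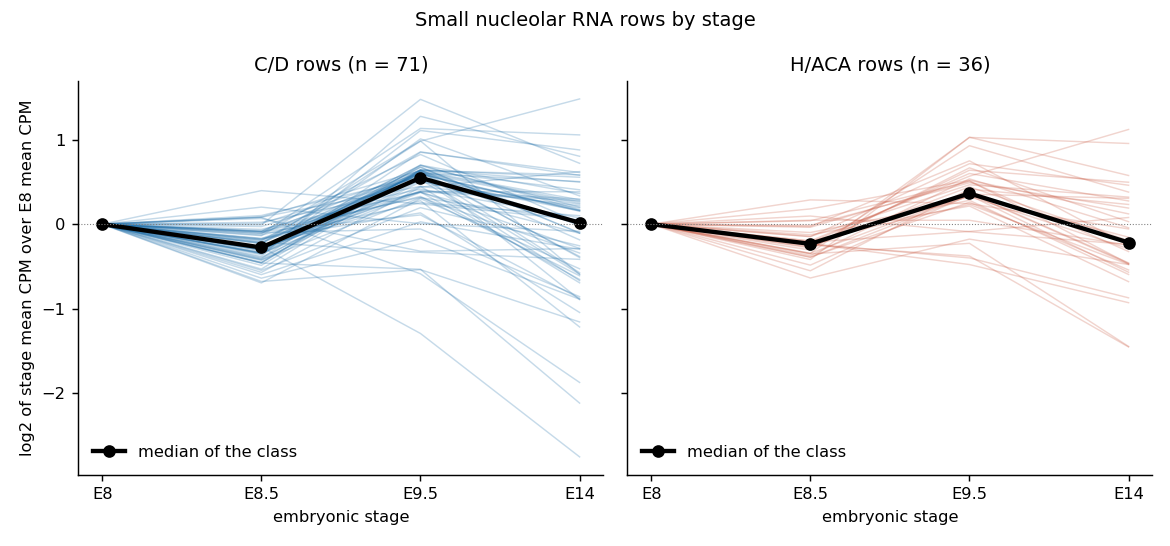
Stage means of the 71 C/D rows (left) and 36 H/ACA rows (right) as the log2 of the mean CPM over the E8 mean, against embryonic stage. Thin lines are rows and the black line is the class median, which is highest at E9.5 in both classes, while the lowest line of the left panel, Snord107, falls at each step.

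Between E8.5 and E8 few members passed the test. By edgeR's quasi-likelihood test at a Benjamini-Hochberg adjusted p under 0.05, 0 of 71 C/D members were higher and 3 were lower, and 0 of 36 H/ACA members were called in either direction, against 1.18% of all rows tested, 0.891% as higher and 0.291% as lower. At an unadjusted p under 0.05 in edgeR, 30 C/D and 13 H/ACA members were lower and 0 higher. At that threshold 8106 of the 28846 rows tested passed, in either direction. DESeq2 called 16 C/D and 8 H/ACA members, all lower. The median log2 fold change was -0.28 for C/D and -0.23 for H/ACA members, beside 0.02 for all rows. Without E8.5 replicate 3 the C/D calls were 1 higher and 36 lower, and the H/ACA calls 0 higher and 17 lower. The share of all rows called by DESeq2 or without that library is not given here, so these counts have no background beside them. The 3 called members all lie in ribosomal protein hosts.

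Snord43, a C/D RNA in an intron of Rpl3 (chr15:80082847-80082954 (- strand)), had 14.2, 17.6 and 16.8 CPM at E8, 9.96, 9.76 and 11.5 CPM at E8.5, 13.2, 14.2 and 15.7 CPM at E9.5 and 8.98, 8.77 and 8.52 CPM at E14. Its E8.5 libraries all lay under the E8 libraries, with a log2 fold change of -0.64 ± 0.10 (SE; adjusted p = 0.0325). Snord42b, in Rpl23a, had 43.9, 34.6 and 49.1 CPM at E8.5 and 61.1, 65.3 and 66.5 CPM at E8, a log2 fold change of -0.60 ± 0.13 (adjusted p = 0.0499). Snord14a, the U14 copy in Rps13, had 15.3, 13.7 and 19.2 CPM at E8.5 and 23.1, 23.6 and 23.8 CPM at E8, a change of -0.55 ± 0.10 (adjusted p = 0.0454). In each of the 3 the stages did not overlap. All 3 calls were lost without E8.5 replicate 2, E8 replicate 2 or E8 replicate 3, among other single libraries.

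Between E9.5 and E8.5 most members rose. Of 71 C/D members, 55 were higher and 2 lower, and of 36 H/ACA members 23 were higher and 0 lower. Of all rows tested, 37.0% were called, 18.4% as higher and 18.5% as lower. The median log2 fold change was 0.77 (C/D) and 0.61 (H/ACA), beside -0.03 for all rows. Members in ribosomal protein or Rack1 hosts were higher in 33 of 35, members in long non-coding hosts in 17 of 25 and members in other coding hosts in 27 of 40, with 1 lower. Of the 7 members without a host row, Snord104 was higher (0.42 ± 0.14), Snord118 was lower and 5 did not pass.

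The 6 members with the largest rises among those whose libraries did not overlap were Snord32a, Snord14e, Snord42a, Snora33, Snora68 and Snord47. Snord32a, a C/D RNA that guides ribosomal RNA methylation and lies in Rpl13a (chr7:45127382-45127464 (- strand)), had 22.2, 24.4 and 24.5 CPM at E8, 17.4, 15.3 and 21.9 CPM at E8.5, 52.6, 57.2 and 62.1 CPM at E9.5 and 44.96, 36.96 and 42.04 CPM at E14. Its log2 fold change from the E8.5 mean was 1.65 ± 0.13 (adjusted p = 1.9e-05), with every E9.5 library above every library of the other stages. Snord14e, a U14 copy in Hspa8 (chr9:40804748-40804837 (+ strand)), had 24.8, 25.1 and 25.9 CPM at E8, 24.6, 20.7 and 30.2 CPM at E8.5, 67.4, 76.5 and 66.8 CPM at E9.5 and 43.4, 39.6 and 41.8 CPM at E14. It rose by 1.48 ± 0.12 (adjusted p = 2.1e-05), and its E14 libraries stayed above those of E8 and E8.5. Snord42a of Rpl23a had 32.2, 30.3 and 33.6 CPM at E8, 28.3, 18.8 and 28.8 CPM at E8.5, 61.3, 69.8 and 75.7 CPM at E9.5 and 61.9, 52.5 and 62.02 CPM at E14. Its change was 1.45 ± 0.15 (adjusted p = 7.3e-05), and the E9.5 and E14 libraries all lay above those of the earlier stages. Snora33, an H/ACA RNA of Rps12, had 57.9, 74.03 and 79.9 CPM at E9.5 and 24.1, 20.3 and 33.4 CPM at E8.5, a change of 1.44 ± 0.16 (adjusted p = 0.00012). Snora68, an H/ACA RNA, had 43.6, 51.9 and 51.1 CPM at E9.5 and 18.4, 16.5 and 21.8 CPM at E8.5, a change of 1.37 ± 0.11 (adjusted p = 2.2e-05). Snord47 of Gas5 had 10.4, 11.8 and 14.03 CPM at E9.5 and 4.33, 4.06 and 5.71 CPM at E8.5, a change of 1.36 ± 0.14 (adjusted p = 8.8e-05). In the last 3 as well, every E9.5 library lay above every E8.5 library.

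The 2 members that fell were Snord107 and Snord118. Snord107 had 0.538, 0.634 and 0.491 CPM at E9.5 and 0.986, 1.08 and 1.31 CPM at E8.5, a log2 fold change of -1.02 ± 0.28 (adjusted p = 0.0147). Snord118 had 4.699, 5.98 and 4.89 CPM at E9.5 and 7.08, 7.29 and 10.4 CPM at E8.5, a change of -0.67 ± 0.15 (adjusted p = 0.00508). Both fell again at E14.

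The longest members did not share the rise. A length of 170 bases, chosen after the values were seen, separated 6 members: Snord17, Snora73a, Snora73b, Snora74a, Snora23 and Snora81. None of the 6 passed the test between E9.5 and E8.5 (edgeR; log2 fold changes -0.39 to 0.13, 1 of them, lower, at an unadjusted p under 0.05, and 0 called by DESeq2), whereas 80 of the 101 shorter members did, 78 of them higher, with a median of 0.74. Summed over the 6, the level was 504, 455 and 507 CPM at E8, 410.2, 341 and 553 CPM at E8.5, 323, 428 and 394 CPM at E9.5, and 332, 309 and 297 CPM at E14. The E9.5 libraries lay within the range of the E8.5 libraries apart from 1 that was lower. The shorter loci summed to 1657, 1768 and 1702 CPM at E8, 1379, 1164 and 1620.2 CPM at E8.5, 2229, 2581 and 2639 CPM at E9.5, and 2007, 1896 and 1867 CPM at E14, and all E9.5 libraries were above all others. The difference between the length groups was not tested.

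**Figure D2:**
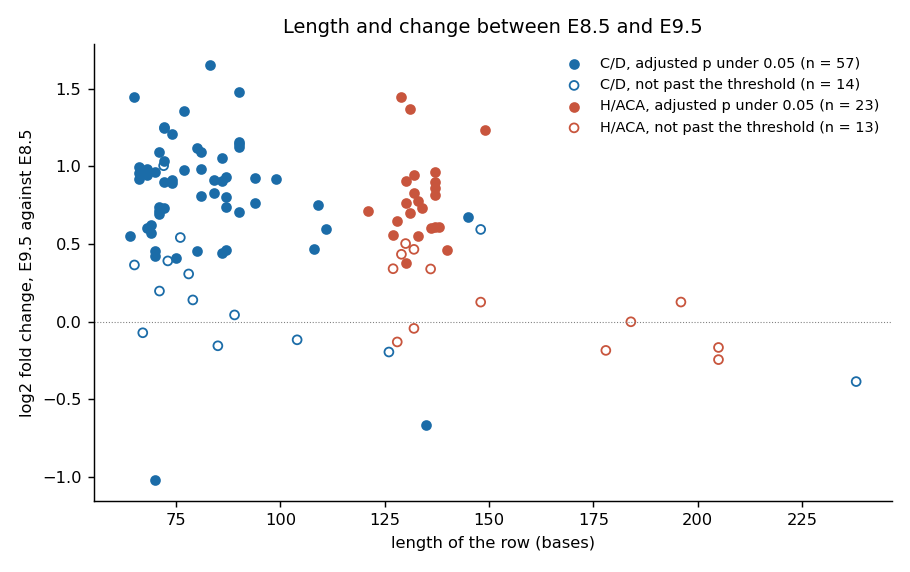
Log2 fold change between E9.5 and E8.5 against the length of each row in bases, with C/D rows in blue and H/ACA rows in red; filled points passed an adjusted p of 0.05. The 6 rows of at least 170 bases are open and lie between -0.39 and 0.13, while most shorter rows are filled and above 0.

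Intronic microRNA rows moved at the same step. Of 24 such rows, 13 were higher and 1 lower at E9.5 than at E8.5, with a median log2 fold change of 0.71. Their median count, in bases of mature host RNA, was 60.7, 66.0 and 68.1 bases at E9.5, against 46.4, 50.9 and 50.2 bases at E8.5, and stood at 50.1, 50.3 and 48.6 bases at E8 and 76.0, 64.3 and 64.3 bases at E14. All 6 libraries of E9.5 and E14 lay above all 6 of E8 and E8.5, so these short intronic intervals held more counts per host count at the later stages. The summed level of 6 erythroid markers was also higher, with 3891 to 9969 CPM at E9.5 and 661 to 1117 CPM at E8.5. The part of either in the rise of the members was not tested.

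Between E14 and E9.5 the direction turned. Of 71 C/D members, 1 was higher and 44 were lower, and of 36 H/ACA members 1 was higher and 20 were lower, beside 50% of all rows called, 25.4% as higher and 24.6% as lower. Median log2 fold changes were -0.48 for C/D and -0.48 for H/ACA members, and 0.01 for all rows. The host rows fell by about as much: 2 of 68 were higher and 49 lower, with a median of -0.45.

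The largest decreases were those of Snord69 and Snord19, both in Gnl3, Snord64 and Snord107, both in Gm38393, Snord57 in Nop56, and Snord118. Gnl3 encodes nucleostemin, a nucleolar protein of proliferating cells, and Nop56 a core protein of C/D particles. Snord69 had 2.03, 1.64 and 1.35 CPM at E14 and 5.17, 4.97 and 4.84 CPM at E9.5, a log2 fold change of -1.58 ± 0.22 (adjusted p = 0.00011). Snord19 had 1.58, 1.03 and 1.09 CPM at E14 and 3.25, 3.39 and 3.76 CPM at E9.5, a change of -1.50 ± 0.22 (adjusted p = 0.00012). The Gnl3 row itself changed by -1.60 ± 0.16, so both members moved with their host. Snord57 had 2.87, 2.95 and 2.81 CPM at E14 and 7.24, 8.08 and 9.09 CPM at E9.5, a change of -1.50 ± 0.11, beside -1.41 ± 0.09 for the Nop56 row.

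The 2 members that rose were Snord59a and Snora31. Snord59a, a C/D RNA in Atp5b, the gene of the beta subunit of mitochondrial ATP synthase (chr10:128084143-128084216 (+ strand)), had 33.4, 37.6 and 35.8 CPM at E8, 29.6, 26.9 and 34.5 CPM at E8.5, 61.1, 75.4 and 74.2 CPM at E9.5 and 103, 98.4 and 96.3 CPM at E14. It rose by 0.50 ± 0.10 between E14 and E9.5 (adjusted p = 0.00166) and by 1.48 ± 0.11 between E14 and E8 (adjusted p = 2.4e-07), the largest rise of a member over the whole span. The Atp5b row rose by 0.44 ± 0.11 and 1.03 ± 0.12 over the same spans. Snora31, an H/ACA RNA in Tpt1, the gene of translationally controlled tumour protein, had 40.1, 35.6 and 36.3 CPM at E8, 41.6, 24.7 and 31.3 CPM at E8.5, 50.7, 54.9 and 60.1 CPM at E9.5 and 84.96, 81.8 and 76.3 CPM at E14. It rose by 0.55 ± 0.15 between E14 and E9.5 (adjusted p = 0.00879), beside 0.51 ± 0.13 for Tpt1. In both members every E14 library was above every earlier one.

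**Figure D3:**
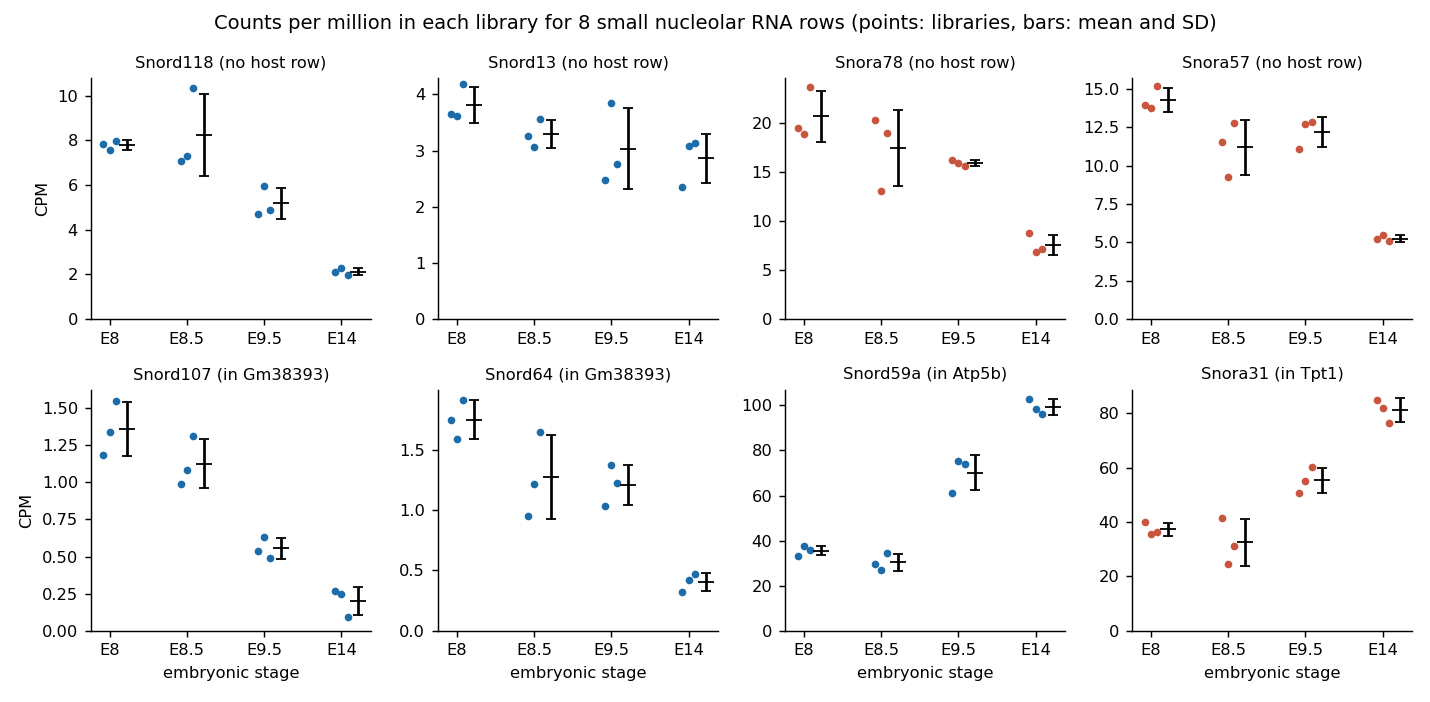
CPM of 8 members by embryonic stage on linear axes from 0, with 1 point per library (blue C/D, red H/ACA) and bars for the stage mean and SD (n = 3). Snord118, Snora78, Snora57, Snord107 and Snord64 are lowest at E14, Snord59a and Snora31 are highest there, and the Snord13 libraries of E8.5, E9.5 and E14 overlap.

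Over the whole span from E8 to E14 gains and losses nearly balanced among C/D members. Of 71, 15 were higher at E14 and 20 lower, and of 36 H/ACA members 6 were higher and 12 lower. Of all rows 60.7% were called, 31.5% as higher and 29.2% as lower, beside 49.5% of the members. Median changes were 0.02 for C/D, -0.22 for H/ACA and 0.04 for all rows. By host, 11 of 35 members in ribosomal protein or Rack1 genes were higher and 5 lower, 9 of 40 in other coding genes higher and 14 lower, and 1 of 25 in long non-coding hosts higher and 9 lower. The largest rises after Snord59a were Snora31 (1.12 ± 0.15), Snord65 (1.05 ± 0.18), Snora68 (0.95 ± 0.11), Snord42a (0.88 ± 0.15) and Snord32a (0.80 ± 0.12). The largest decreases were Snord107 (-2.76 ± 0.31), Snord64 (-2.10 ± 0.23), Snord118 (-1.87 ± 0.16), Snora78 (-1.46 ± 0.16), Snora57 (-1.44 ± 0.12) and Snord19 (-1.23 ± 0.21).

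Snord118 (U8), which in vertebrates is needed to process the large-subunit ribosomal RNAs, fell furthest among members without a host row. The gene lies at chr11:69073427-69073561 (+ strand), and the row had 7.84, 7.56 and 7.97 CPM at E8, 7.08, 7.29 and 10.4 CPM at E8.5, 4.699, 5.98 and 4.89 CPM at E9.5 and 2.13, 2.301 and 1.97 CPM at E14. E8 and E8.5 libraries overlapped, all E9.5 libraries lay under them and all E14 libraries lay under those of E9.5. The log2 fold change between E14 and E8 was -1.87 ± 0.16 (adjusted p = 8.8e-07). Snord13 (U13), which has its own promoter like Snord118 and guides acetylation of the small-subunit ribosomal RNA in human cells, had 3.65, 3.61 and 4.19 CPM at E8, 3.25, 3.06 and 3.55 CPM at E8.5, 2.48, 3.85 and 2.76 CPM at E9.5 and 2.35, 3.09 and 3.14 CPM at E14. Its E8 libraries lay above those of E8.5 and E14 and overlapped those of E9.5, and the change between E14 and E8 was -0.41 ± 0.17 (adjusted p = 0.0555). Snora78 had 19.4, 18.9 and 23.6 CPM at E8, 20.2, 13.1 and 18.96 CPM at E8.5, 16.2, 15.9 and 15.6 CPM at E9.5 and 8.75, 6.81 and 7.11 CPM at E14. It passed no test up to E9.5, and its log2 fold change between E14 and E8 was -1.46 ± 0.16 (adjusted p = 7.6e-06). Snora57 had 5.202, 5.48 and 5.07 CPM at E14 and 13.96, 13.7 and 15.2 CPM at E8, a change of -1.44 ± 0.12 (adjusted p = 6.3e-07). The other 3 members without a host row were Snora43 with -0.68 ± 0.19, Snora17 with -0.32 ± 0.18 and Snord104 with 0.10 ± 0.15, of which only Snora43 passed the test in that comparison.

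The most abundant of the long H/ACA members lie in long non-coding hosts. Snora73a and Snora73b (U17), which are needed for cleavage of the precursor next to the small-subunit ribosomal RNA, lie side by side in Snhg3. Snora73a had 222, 213 and 234 CPM at E8, 186, 153 and 231 CPM at E8.5, 154, 175 and 179.7 CPM at E9.5 and 136, 115 and 115 CPM at E14, and Snora73b had 138, 113 and 133 CPM at E8, 105, 81.2 and 140.1 CPM at E8.5, 65.7, 117 and 92.9 CPM at E9.5 and 68.2, 72.6 and 60.9 CPM at E14. Both were lower at E14 than at E8, with log2 fold changes of -0.87 ± 0.13 (adjusted p = 0.00013) and -0.93 ± 0.22 (adjusted p = 0.00297), beside -0.89 ± 0.15 for the Snhg3 row. Snora73a made up 62.2 ± 1.77% (E8), 61.9 ± 1.11% (E8.5), 63.1 ± 4.42% (E9.5) and 63.01 ± 2.67% (E14) of the Snhg3 count and Snora73b 35.6 ± 1.89% (E8), 35.2 ± 1.703% (E8.5), 33.6 ± 5.25% (E9.5) and 34.8 ± 2.67% (E14), so the host row was nearly all small nucleolar RNA and is no separate measure of the host. With 7 differing positions in 205, reads of the pair may have been split between them by the counting. Snora74a (U19), in Snhg4, had 44.98, 40.6 and 43.2 CPM at E8, 34.1, 30.1 and 46.98 CPM at E8.5, 32.6, 45.5 and 43.2 CPM at E9.5 and 48.1, 43.9 and 44.02 CPM at E14, with no call in any of the 4 comparisons at log2 fold changes of -0.21 ± 0.15, 0.13 ± 0.16, 0.16 ± 0.16 and 0.08 ± 0.16 in the order given above. Snord22 (U22), in Snhg1, was named after its values were seen and likewise had no call, with 23.02 ± 2.35 CPM at E8, 26.5 ± 9.35 CPM at E8.5, 23.1 ± 5.66 CPM at E9.5 and 21.7 ± 2.19 CPM at E14.

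From each stage to the next, most members changed in the direction of their host row, but over the whole span far fewer did. Among 100 members with a host, the log2 fold change had the sign of the host in 92 for E8.5 against E8, 89 for E9.5 against E8.5, 96 for E14 against E9.5 and 58 for E14 against E8. Between E9.5 and E8.5 the member lay above its host in 87 of 100, with medians of 0.74 for members and 0.40 for hosts. Between E14 and E9.5 it lay above in 53 and below in 47, with medians of -0.47 for both. The host rows contain the reads of their members, which ties the 2 values.

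**Figure D4:**
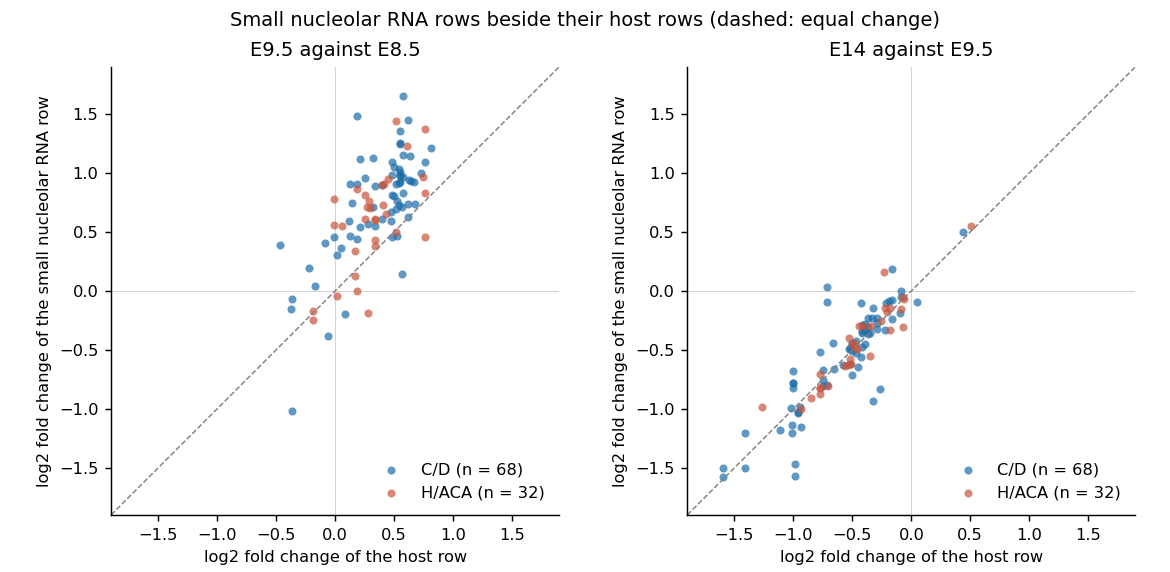
Log2 fold change of each member (vertical axis) against that of its host row (horizontal axis), for E9.5 against E8.5 on the left and E14 against E9.5 on the right, with 68 C/D members in blue and 32 H/ACA members in red. On the left most points lie above the dashed line of equal change, and on the right they scatter around it.

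The ratio of a member to its host, after the counts of all enclosed rows were taken off the host, was tested with limma over 3257 pairs of an enclosed row and a host row. Of 99 members tested, 0 were called between E8.5 and E8 (4 higher and 9 lower at an unadjusted p under 0.05, and 1 lower with the host row as deposited), 62 higher and 1 lower between E9.5 and E8.5, 3 higher and 5 lower between E14 and E9.5, and 65 higher and 6 lower between E14 and E8. Of all pairs, 0.184%, 24.5%, 7.18% and 29.8% were called in the same order, as higher 0.0614%, 21.6%, 2.86% and 22.5%, and as lower 0.123%, 2.92%, 4.33% and 7.22%. Median ratio changes of the members were 0.01, 0.48, 0.01 and 0.53, beside -0.03, 0.63, -0.04 and 0.42 for intronic microRNA rows. With each library centred on the microRNA rows, the calls became 15 higher and 7 lower between E9.5 and E8.5 and 22 higher and 12 lower between E14 and E8, with member medians of 0.00 and 0.05. Between E14 and E8 the median without centring was 0.54 for C/D and 0.45 for H/ACA members. These member counts and medians include the members of Gas5, Snhg3 and Snhg1. The net counts of these hosts were as low as 0, 0.527 and 3.76% of the host row in the same order, which limits their ratios.

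Several hosts hold more than 1 member, whose shares of the same host count are given side by side. Rpl13a hosts Snord32a, Snord33, Snord34 and Snord35a, guides of ribosomal RNA methylation, and Snord32a, Snord33 and Snord35a have been linked to the response of rodent cells to lipid overload. Snord32a made up 5.196, 5.12 and 5.23% (E8), 5.09, 5.06 and 5.198% (E8.5), 11.3, 10.4 and 10.8% (E9.5) and 10.9, 9.59 and 10.7% (E14) of the Rpl13a count. Snord33 made up 8.17 ± 0.468% (E8), 8.63 ± 0.803% (E8.5), 10.2 ± 0.214% (E9.5) and 11.1 ± 0.57% (E14), Snord34 10.1 ± 0.2097% (E8), 10.2 ± 0.668% (E8.5), 13.3 ± 0.295% (E9.5) and 13.8 ± 0.1997% (E14) and Snord35a 10.2 ± 0.0657% (E8), 9.595 ± 0.112% (E8.5), 14.4 ± 0.0912% (E9.5) and 15.2 ± 0.976% (E14). For Snord32a every library of E9.5 and E14 lay above every earlier one. Ratio changes between E14 and E8, centred on the microRNA rows, were 1.17 ± 0.10 for Snord32a, 0.61 ± 0.11 for Snord33, 0.62 ± 0.11 for Snord34 and 0.74 ± 0.11 for Snord35a, each with an adjusted p under 0.05 in limma. Without centring they were 1.65 ± 0.07, 1.09 ± 0.10, 1.10 ± 0.08 and 1.22 ± 0.05 in the same order, and all passed. The net Rpl13a count was only 35.2% to 58.8% of the Rpl13a row over the libraries. Since the counts of the members are taken off the host, members that rise together enlarge their own net ratios, here and in the hosts below. The shares of the whole host count do not have this limit to the same degree.

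Rpl23a hosts Snord42a, Snord42b and Snord4a. Snord42a made up 11.1, 10.04 and 10.9% (E8), 12.6, 10.5 and 11.2% (E8.5), 20.7, 20.2 and 20.2% (E9.5) and 22.4, 18.9 and 22.5% (E14) of the Rpl23a count. Snord42b made up 21.05, 21.7 and 21.6% (E8), 19.6, 19.4 and 19.1% (E8.5), 18.9, 19.6 and 19.6% (E9.5) and 17.4, 20.4 and 18.97% (E14). The Snord42b share was above that of Snord42a in all libraries of E8 and E8.5 and below it in the E9.5 libraries, and the E14 libraries overlapped. The ratio change between E14 and E8 was 1.21 ± 0.10 for Snord42a (adjusted p = 1e-05), 0.04 ± 0.06 for Snord42b (adjusted p = 0.704) and 0.38 ± 0.07 for Snord4a (adjusted p = 0.00234). After centring it was 0.73 ± 0.13 (adjusted p = 0.00263), -0.44 ± 0.12 (adjusted p = 0.0275) and -0.10 ± 0.11 (adjusted p = 0.559) in the same order, so Snord42a alone passed both ways, and Snord42b passed only after centring. The difference between the members was not itself tested. Snord42a and Snord4a lie inside a longer row on the opposite strand and Snord42b does not. With the strand setting unknown, reads of that strand may have been counted in some of these members and not in others.

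Hspa8, the gene of the constitutive heat shock protein Hsc70, hosts the U14 copies Snord14c, Snord14d and Snord14e. Snord14e made up 1.698, 1.64 and 1.701% (E8), 1.76, 1.83 and 1.82% (E8.5), 4.38, 4.504 and 4.38% (E9.5) and 4.36, 4.404 and 4.45% (E14) of the Hspa8 count. Snord14c made up 3.58 ± 0.102% (E8), 3.65 ± 0.166% (E8.5), 6.01 ± 0.0905% (E9.5) and 5.78 ± 0.2598% (E14) and Snord14d 4.36 ± 0.117% (E8), 4.52 ± 0.0872% (E8.5), 5.39 ± 0.105% (E9.5) and 5.69 ± 0.398% (E14). The ratio change between E14 and E8 was 1.49 ± 0.05 for Snord14e, 0.79 ± 0.06 for Snord14c and 0.48 ± 0.06 for Snord14d, all of which passed (adjusted p = 1e-08, 6.7e-06 and 0.00026). After centring it was 1.01 ± 0.10 for Snord14e (adjusted p = 4.1e-05), 0.31 ± 0.12 for Snord14c (adjusted p = 0.0924) and 0.00 ± 0.08 for Snord14d (adjusted p = 0.976), of which only that of Snord14e passed. Snord14c and Snord14d differ at 2 of 86 positions, so how reads were split between them is uncertain, whereas Snord14e is more distant. The Hspa8 row itself fell, with a log2 fold change of -0.67 ± 0.13 between E14 and E8 (adjusted p = 0.00059).

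In Rpl3 the host shares of Snord43 and Snord83b moved in opposite directions. After centring both ratio changes were negative, and only that of Snord43 passed. Snord43 made up 3.095, 3.48 and 3.38% (E8), 2.32, 2.68 and 2.37% (E8.5), 2.39, 2.24 and 2.398% (E9.5) and 1.96, 2.08 and 2.03% (E14) of the Rpl3 count. Snord83b made up 6.33, 6.21 and 6.06% (E8), 6.33, 6.46 and 6.07% (E8.5), 7.44, 7.47 and 7.31% (E9.5) and 7.799, 7.798 and 7.601% (E14). The Snord43 share was lower in all libraries of E8.5, E9.5 and E14 than in those of E8, while the Snord83b share was higher in all libraries of E9.5 and E14 than in the earlier ones. The ratio change between E14 and E8 was -0.66 ± 0.08 for Snord43 (adjusted p = 0.00013) and 0.37 ± 0.05 for Snord83b (adjusted p = 0.00041), and after centring -1.14 ± 0.12 (adjusted p = 7.4e-05) and -0.11 ± 0.10 (adjusted p = 0.473).

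**Figure D5:**
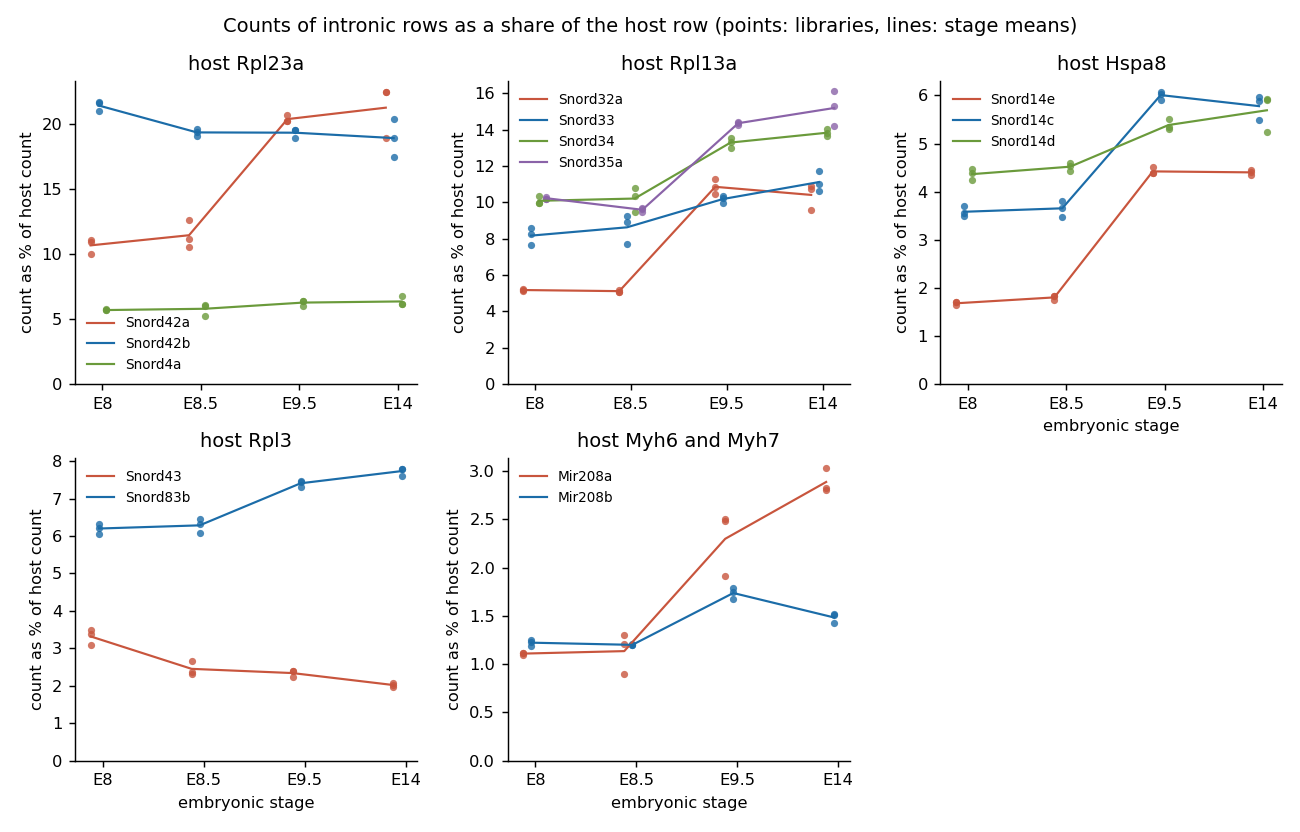
Counts of intronic rows as a percentage of the host row count, by embryonic stage, with 1 point per library and lines through the stage means; the vertical axes start at 0. Snord42a, Snord32a and Snord14e step up between E8.5 and E9.5, Snord43 goes down, and the microRNA rows Mir208a (Myh6) and Mir208b (Myh7) also step up.

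Further ratios called between E14 and E8 were those of Snora7a and Snord45c. Snora7a, an H/ACA RNA of Rpl32, made up 25.4 ± 0.301% (E8), 22.1 ± 0.566% (E8.5), 17.9 ± 0.491% (E9.5) and 18.5 ± 1.53% (E14) of the host count, a ratio change of -0.59 ± 0.07 (adjusted p = 0.00021). The Snora7a row overlaps an exon of the principal Rpl32 transcript, unlike the intronic microRNA rows used for centring, so it may hold exon reads of the host. Snord45c of Rabggtb made up 2.96 ± 0.306% (E8), 3.17 ± 0.561% (E8.5), 3.06 ± 0.0213% (E9.5) and 2.01 ± 0.382% (E14), a ratio change of -0.53 ± 0.16 (adjusted p = 0.0354), while Snord45b of the same host had 0.58 ± 0.07 (adjusted p = 0.00022). After centring the changes were -1.07 ± 0.10 for Snora7a, -1.01 ± 0.20 for Snord45c and 0.10 ± 0.12 for Snord45b, and that of Snord45b no longer passed (adjusted p = 0.594). Snord17 in Snx5, the C/D member in a coding host with the largest count for its host, had 75.6, 67.3 and 73.6 CPM at E8, 66.03, 60.4 and 100.2 CPM at E8.5, 50.7, 66.4 and 56.3 CPM at E9.5 and 60.2, 59.7 and 57.4 CPM at E14. Snord17 was not called in any comparison, but Snx5 fell, and the ratio changed by 0.92 ± 0.14 between E14 and E9.5 (adjusted p = 0.00379).

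Long non-coding hosts gave a mixed picture. Gas5 hosts Snord47, Snord78 and both Snord80 rows. Snord47 made up 5.04 ± 0.1199% (E8), 5.13 ± 0.368% (E8.5), 8.89 ± 0.491% (E9.5) and 11.2 ± 1.18% (E14) of the Gas5 count and Snord78 8.63 ± 0.153% (E8), 9.18 ± 0.451% (E8.5), 11.8 ± 0.192% (E9.5) and 13.4 ± 0.601% (E14). Snord47 rose relative to the Gas5 row as deposited by 1.15 ± 0.08 between E14 and E8 (adjusted p = 4.7e-06), and Snord78 by 0.64 ± 0.05 (adjusted p = 8e-06). In Gas5 the enclosed rows summed to more than the host at E9.5 and E14, so that the net ratios of its 4 rows, the largest of all, are not interpretable and only these shares are given. The Gas5 row had 119 ± 4.401 CPM at E8, 92.4 ± 21.8 CPM at E8.5, 135 ± 15.7 CPM at E9.5 and 67.3 ± 1.35 CPM at E14 and fell, with a log2 fold change of -0.82 ± 0.14 between E14 and E8 (adjusted p = 0.00027). Snhg12 hosts Snora44, Snora61, Snord99 and the nested Snora16a rows. Snord99 had a ratio change of 1.07 ± 0.15 between E14 and E8 (adjusted p = 0.0005), Snora61 of 0.44 ± 0.12 (adjusted p = 0.0166) and Snora44 of 0.54 ± 0.24 (adjusted p = 0.123). After centring Snord99 still passed with 0.59 ± 0.18 (adjusted p = 0.0406) and Snora61 did not, at -0.04 ± 0.15 (adjusted p = 0.889). In 2410006H16Rik, Snord65 rose by 1.05 ± 0.18 between E14 and E8 (adjusted p = 0.00028), and Snord49a and Snord49b had 0.62 ± 0.39 and 0.61 ± 0.32 without passing.

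Snord64 and Snord107 lie 2001 bases apart in Gm38393 on chromosome 7, within the imprinted region whose human counterpart is lost in Prader-Willi syndrome, and neither has a known ribosomal RNA target. Snord107 had 1.18, 1.34 and 1.55 CPM at E8, 0.986, 1.08 and 1.31 CPM at E8.5, 0.538, 0.634 and 0.491 CPM at E9.5 and 0.266, 0.248 and 0.0912 CPM at E14, close to the count minimum. Snord64 had 1.75, 1.59 and 1.92 CPM at E8, 0.952, 1.22 and 1.65 CPM at E8.5, 1.04, 1.37 and 1.22 CPM at E9.5 and 0.323, 0.421 and 0.469 CPM at E14. Between E14 and E8 both fell, with log2 fold changes of -2.76 ± 0.31 (adjusted p = 1.1e-05) and -2.10 ± 0.23 (adjusted p = 8.5e-06), beside -1.57 ± 0.10 for the Gm38393 row. Snord107 was already lower at E9.5, where Snord64 overlapped its E8.5 libraries. The ratio to the host fell for Snord107 (-1.21 ± 0.34, adjusted p = 0.0216), and for Snord64 it was -0.48 ± 0.18 (adjusted p = 0.065), or -0.96 ± 0.22 after centring (adjusted p = 0.00945). The Snord107 row overlaps an exon of the principal Gm38393 transcript, whereas the Snord64 row does not.

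RNA levels of the genes that encode the particle proteins were lower at E14 than at E9.5. All 4 C/D core genes were lower at E14 than at E9.5, where 24.6% of all rows were lower, with a median of -0.92. Fibrillarin (Fbl), the methyltransferase, had 17.6 ± 1.17 CPM at E14 and 32.5 ± 0.161 CPM at E9.5, a log2 fold change of -0.88 ± 0.11 (adjusted p = 2.7e-05). Nop56 changed by -1.41 ± 0.09, Nop58 by -0.96 ± 0.13 and Nhp2l1 by -0.68 ± 0.11. All 4 H/ACA core genes were lower as well, with a median of -0.73. Dyskerin (Dkc1), the pseudouridine synthase, changed by -1.02 ± 0.09, Nhp2 by -1.29 ± 0.11, Nop10 by -0.44 ± 0.12 and Gar1 by -0.27 ± 0.09. Between E9.5 and E8.5, 3 of 4 C/D and 2 of 4 H/ACA core genes were higher, beside 18.4% of all rows, with medians of 0.36 and 0.27.

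Of 11 assembly factors, 9 were lower between E14 and E9.5 and none higher, with the largest change in Nolc1 (-1.26 ± 0.11), the nucleolar phosphoprotein Nopp140. Ruvbl1 (-0.84 ± 0.10), Znhit3 (-0.84 ± 0.12) and Coil, the gene of coilin (-0.82 ± 0.11), followed. Against 24.6% of all rows lower and 25.4% higher at that step, 3 of 6 processing genes were lower and none higher, and the share called equals the 50% of all rows called in either direction. The largest of these decreases was that of the intron debranching enzyme Dbr1 (-0.81 ± 0.11). Of 15 genes of ribosomal RNA transcription and the nucleolus, 10 were lower and 1 higher. Npm1 (-1.52 ± 0.15), Polr1b (-1.24 ± 0.08) and Mycn (-1.07 ± 0.10) had the largest decreases, and Polr1e (0.94 ± 0.08) was higher. Of 25 rows of long non-coding host genes, 21 were lower and 1, Snhg18 (1.19 ± 0.14), was higher.

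Other small structural RNAs are given for comparison, with no test of a difference from the members. Of 17 rows, 6 were higher and 2 lower between E9.5 and E8.5, beside 18.4% of all rows higher and 18.5% lower. Between E14 and E9.5, 4 were higher and 2 lower, beside 25.4% and 24.6% of all rows. Scarna10, a guide RNA of Cajal bodies, rose by 1.14 ± 0.13 between E14 and E9.5, and Rn7sk, an inhibitor of transcription elongation, by 0.91 ± 0.12. Terc, the H/ACA-type template RNA of telomerase, had 2.28 ± 0.246 CPM at E14 and 15.4 ± 0.743 CPM at E8, a log2 fold change of -2.76 ± 0.13 (adjusted p = 1.4e-08).

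A single library decided the values of 1 further member. Snord15a, in Rps3, had 561 counts in E8 replicate 3, against 5842 and 6710 counts in the other E8 libraries, while its neighbour Snord15b in the same host had 5261, 4166 and 4705. Among 10350 rows with at least 10 CPM in both other E8 libraries, Snord15a alone was under 20% of their lower value in that library. With all libraries it had a log2 fold change of 0.01 ± 0.64 between E14 and E8 (adjusted p = 0.992), and without E8 replicate 3 of -0.53 ± 0.19 (adjusted p = 0.0389). The cause of the low count was not tested.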

How the data were processed

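Members and lists were chosen with earlier results of these data known. Per the labels' protocols, tissue was lysed in TriZol and libraries followed a standard Illumina preparation of total RNA. The submitters' processing notes name STAR 2.5.0, Cufflinks 2.2.1 and the builds GRCm38, mm10 and hg38, with no role for each. The authors deposited 1 table of whole-number read counts per gene interval, not normalised. The counting tool, its strand setting, the annotation and the read length were not given in the sources used here. If reads of both strands and reads that span an intron were counted, a short intronic interval also holds host reads.

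Intervals were matched to GENCODE release M21: 42778 of 48709 had an identical interval, 5645 matched by symbol and overlap and 286 had no match. Counts were tested in R 4.3.3 with edgeR 4.0.16 (filterByExpr, which left 28846 rows, TMM factors, 1 robust quasi-likelihood fit of all 12 libraries with a mean per stage), with Benjamini-Hochberg adjustment over all rows. Ratios of each enclosed row to its host, less all enclosed counts (0.5 added to both, mean of at least 10), were tested with limma 3.58.1 over 3257 pairs. Folds are log2 with SE, and CPM use TMM-scaled totals. Class and list results are counts and medians, with no test over a list. The replicate numbers were not treated as pairing libraries. Correlations of same-numbered deviations between stages ran from -0.08 to 0.13. Without differently numbered pairs as a reference, these values cannot show that pairing is absent. Named members were those with the largest called changes without overlap (6 each way per comparison), the 5 highest of each class per kilobase, all members of hosts with at least 3, a fixed set of well-studied members, the largest ratio changes and those at the count minimum. Both fits were tested on simulated data. Tables were made with Python 3.11, pandas 2.3.3 and Biopython 1.88.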

Additional observations from a re-analysis of the deposited data

How the results depend on the processing

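Calls of C/D members were 3, 57, 45 and 35 and of H/ACA members 0, 23, 21 and 18 in the 4 comparisons (E8.5 against E8, E9.5 against E8.5, E14 against E9.5, E14 against E8), and of ratios 0, 63, 8 and 71. They stayed within 1.5 times under other scale factors, no filter, library sizes without small structural RNAs, host background subtracted and minimums of 300 or 3000 counts, and, for ratios, under the longest enclosing row, a pseudocount of 2 and a minimum mean of 50. Between E8.5 and E8, C/D calls were 0 with the replicate block, with those stages fitted alone and with spliced host reads subtracted (chosen after seeing the data), and 16 with DESeq2, which called 8 H/ACA members. Ratio calls there were 1 with the host as deposited and 1 with hosts keeping at least 20% net count. Between E9.5 and E8.5, H/ACA calls were 15 with those stages alone, and ratio calls 22 when centred on intronic microRNA rows. Between E14 and E9.5, C/D calls were 29 with spliced host reads subtracted, and ratio calls 4 with hosts keeping 20% and 3 with those stages alone. Between E14 and E8, ratio calls were 34 when centred. Leaving out 1 library gave 0 to 37 C/D and 0 to 17 H/ACA calls and 0 to 3 ratio calls between E8.5 and E8, the highest of each without E8.5 replicate 3, and in the other comparisons 50 to 59, 39 to 49 and 28 to 43 C/D, 17 to 30, 18 to 26 and 14 to 22 H/ACA, and 54 to 67, 6 to 10 and 60 to 74 ratio calls. With spliced host reads subtracted, 2 named values changed sign: Snord14a to -0.76 between E9.5 and E8.5 and Snord69 to 0.85 between E14 and E8. The cause of these moves was not tested. The replicate block moved no other count past 1.5 times. Members near the count minimum hold under 100 counts in some libraries, which limits them, and intervals of short rows share reads with their hosts.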
